A study of Mus musculus with 12 samples.

Results

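The mitochondrial genome of the mouse carries 37 genes, and all of them were described here in laser-captured nigral tissue of 12 mice. They were chosen by name, as every gene whose symbol starts with mt-, and are 37 of the 54193 genes to which the deposited transcripts could be assigned. They comprise 13 protein-coding genes, 2 ribosomal RNA (rRNA) genes and 22 transfer RNA (tRNA) genes. After a filter on low counts 26 of the 37 were tested among 18017 genes: all 13 mRNAs, both rRNAs and 11 tRNAs. The study compared 4 groups of 3 mice at 1 week of age, all labelled male: WT and En1+/− mice of the OF1 strain, and the same genotypes of the C57 strain. OF1 is the SwissOF1 strain, which is outbred, and C57 is the inbred C57Bl/6J strain. The En1+/− mice carry 1 null allele of the homeobox gene En1, made by a lacZ insertion, and their WT counterparts carry none. C57-En1+/− mice came from backcrossing the OF1 line to C57 for more than 10 generations, and in both strains WT females were mated with En1+/− males. Nigral tissue of each mouse was cut from cresyl violet stained sections and made into 1 library, so a library holds every cell type of the cut area. Fewer cells of a type and less RNA per cell cannot be told apart in such samples, and a share of reads says nothing of the number of mitochondrial genomes.

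Mitochondrial DNA is inherited from the mother and lies outside the nucleus, inside the organelle that makes most of the ATP of a neuron. It is transcribed from both strands into long precursors that cover many genes, and the tRNAs between the other genes mark where the precursors are cut. All mRNAs but mt-Nd6 come from precursors started at the heavy-strand promoters, and mt-Nd6 and a minority of tRNAs come from the light-strand promoter. The mRNAs encode core subunits of respiratory complexes I, III, IV and V, and the rRNAs and tRNAs serve the translation of these mRNAs inside the organelle.

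In the annotation 28 genes lay on the strand read from the heavy-strand promoters (12 mRNAs, 2 rRNAs and 14 tRNAs) and 9 on the strand read from the light-strand promoter (mt-Nd6 and 8 tRNAs). The genome of 16299 bases (chrM of GRCm39) is packed so closely that neighbours share bases. The stretches below show such neighbours for members described in the comparisons of strains, read from the reference genome of the C57 strain, with the bases shared by neighbours in capitals. The whole of mt-Atp8 (chrM:7766-7969, plus strand) is shown because its last 43 bases also open mt-Atp6 (chrM:7927-8607). The junction of mt-Nd4l and mt-Nd4 (chrM:10147-10193, plus strand) has 7 shared bases. The junction of mt-Nd5 and mt-Nd6 (chrM:13532-13585, plus strand) has 14 shared bases, and mt-Nd6 is read from the opposite strand. The tRNA gene mt-Ts1 (chrM:6870-6938, given 5′ to 3′ on the minus strand) lies opposite the end of mt-Co1 and shares 3 bases with it.

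mt-Atp8: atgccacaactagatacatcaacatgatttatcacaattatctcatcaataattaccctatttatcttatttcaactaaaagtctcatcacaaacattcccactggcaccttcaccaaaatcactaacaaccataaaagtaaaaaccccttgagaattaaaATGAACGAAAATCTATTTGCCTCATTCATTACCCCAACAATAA

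mt-Nd4l and mt-Nd4 junction: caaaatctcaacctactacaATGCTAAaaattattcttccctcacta

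mt-Nd5 and mt-Nd6 junction: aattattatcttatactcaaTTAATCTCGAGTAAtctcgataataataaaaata

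mt-Ts1: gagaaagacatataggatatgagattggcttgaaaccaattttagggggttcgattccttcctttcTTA

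The libraries kept no strand, so reads of mt-Nd6 cannot be told from reads of any RNA opposite to it, nor reads of mt-Ts1 from those of an RNA that runs on past mt-Co1. The tRNA genes are 59 to 75 bases long and the reads 75 bases. Reads of a tRNA therefore cannot be told from those of a longer RNA that covers its gene on either strand. Reads of all mice were matched to transcripts of the C57 reference, so in a comparison of strains a sequence difference and a difference in level cannot be told apart. Depth was between 13538864 and 168741283 estimated reads per library, and the 3 C57 WT libraries were the deepest. Libraries SW22 (OF1-En1+/−) and C572S (C57 WT) stood apart: the summed level of 8 dopaminergic markers was 12070 and 19100 CPM (counts scaled to library size) there and between 43.9 and 259 CPM in the other libraries. Th, the enzyme that defines dopaminergic neurons, was at 2673 and 3788 CPM in these libraries and at 0.274 to 45.0 CPM in the others, so the defining marker of nigral dopaminergic neurons was high in 2 of 12 libraries. En1 was at 21.5 and 33.3 CPM in the same libraries and at most 0.473 CPM elsewhere, and so did not follow genotype. In the C57-En1+/− library C572, labelled male, Xist stood at 41.4 CPM and the Y-linked Ddx3y and Eif2s3y at 0, whereas Ddx3y was at 23.3 CPM or more in every other library.

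Reads of mitochondrial genes were dominated by the mRNAs. They took 91.3 to 95.3% of mitochondrial reads in a library, the rRNAs 4.45 to 8.30% and the tRNAs 0.157 to 0.436%. Levels of different genes were compared as CPM per kb of annotated length. Among the 13 mRNAs mt-Co3 (chrM:8607-9390), a core subunit of complex IV, ranked the highest in all 12 libraries, with a mean of 9304 ± 2999 CPM per kb (SD over 12 mice). It was followed in every library by mt-Atp6, a subunit of the ATP synthase (7151 ± 2153), and then by mt-Co2 of complex IV (4807 ± 1575). The place of mt-Co2 depended on the treatment of nuclear copies: with their reads added, in a count made after the values were seen, mt-Co1 took rank 3 in 8 libraries and mt-Co2 in 4. The lowest was mt-Nd4l of complex I in all 12 libraries (257 ± 116 CPM per kb).

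Between these ends some neighbours could not be ordered. mt-Cytb, the only mitochondrial subunit of complex III (3332 ± 945 CPM per kb), and mt-Co1, the catalytic subunit of complex IV (3314 ± 1184), each took ranks 4 to 6. mt-Nd2 of complex I (632 ± 251) and mt-Nd6 (629 ± 229) exchanged places between ranks 9 and 11, and mt-Nd5 (470 ± 112) and mt-Nd3 (464 ± 231) did so between ranks 10 and 12. mt-Atp8, the small ATP synthase subunit, ranged most widely in rank, from 4 to 8, and had the largest spread relative to the other mRNAs (SD of 0.48 on the log2 scale, against 0.13 to 0.34 for the other 12). Within a library the highest mRNA stood 23.7 to 53.6-fold above the lowest per kb, although 12 of the 13 are cut from heavy-strand precursors.

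**Figure D1:**
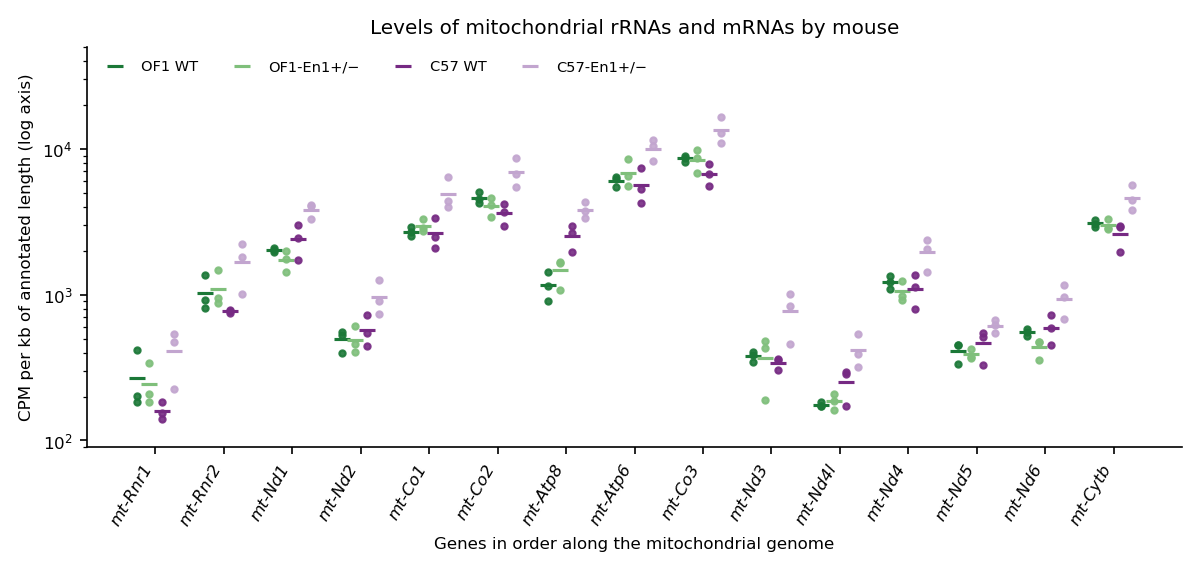
Levels of the rRNAs and mRNAs as CPM per kb of annotated length (log axis), with genes in order along the genome. Points are mice and bars are group means (3 mice each). The highest mRNA in every library is mt-Co3 and the lowest is mt-Nd4l, and most mRNAs have their highest values in C57-En1+/− mice.

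The share of all assigned reads that came from mitochondrial genes was highest in C57-En1+/− mice. It was 4.94, 5.50 and 3.85% in these mice (mean 4.76% ± 0.837, SD, n = 3), and 2.33, 3.03 and 2.47% in C57 WT mice (2.61% ± 0.369, n = 3). In OF1 WT mice the share was 3.01, 3.09 and 2.61%, and in OF1-En1+/− mice it was 3.53, 2.58 and 2.87%. The C57 genotypes did not overlap, and the ratio of their means was 1.83. They did not overlap in depth either, at 20030280 to 37754338 estimated reads in C57-En1+/− and 61433970 to 168741283 in C57 WT libraries. The part of depth in the share was not tested. The OF1 genotypes overlapped and had a ratio of 1.03.

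Averaged over the strains, the share was 1.12 percentage points higher in En1+/− than in WT mice (exact permutation test within strains, two-sided, p = 0.045, adjusted p = 0.11 over 22 tests of ratios). OF1 and C57 mice differed by -0.74 percentage points (OF1 minus C57, exact permutation p = 0.155, adjusted p = 0.284). The genotype difference was 2.16 points in C57 and 0.09 points in OF1 mice, and these differed by 2.07 points (exact permutation test, p = 0.065, adjusted p = 0.22 over 11 tests), so neither test passed the threshold of 0.05. Within the C57 strain alone 3 against 3 mice gave an exact permutation p = 0.1, which is the smallest that design allows. Library C572 had the highest share, and without it the 2 remaining C57-En1+/− mice still stood above all C57 WT mice.

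Markers of red blood cells did not overlap between the C57 genotypes: the summed level of 4 globin genes was 687 to 1412 CPM in C57-En1+/− and 369 to 455 CPM in C57 WT mice. Of all single genes 6.22% were higher without overlap in C57-En1+/− mice. In OF1 mice the globin sum overlapped, at 200 to 1768 CPM in WT and 304 to 912 CPM in En1+/− mice, with the highest value in SW7. The 6 oligodendrocyte genes summed to 6093 CPM in C572 and were between 333 and 1066 CPM in the other 5 C57 mice. In OF1 mice the same oligodendrocyte list was at 636 to 1309 CPM in WT and 1693 to 3507 CPM in En1+/− mice, and 6 genes of subthalamic and posterior hypothalamic neurons were at 280 to 1703 and 20.7 to 77.0 CPM. The lists for GABAergic neurons, astrocytes, microglia and endothelial cells spanned 33.0 to 2017, 830 to 1622, 136 to 284 and 46.0 to 113 CPM over the 12 libraries. The part of these cell types in the results was not tested.

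**Figure D2:**
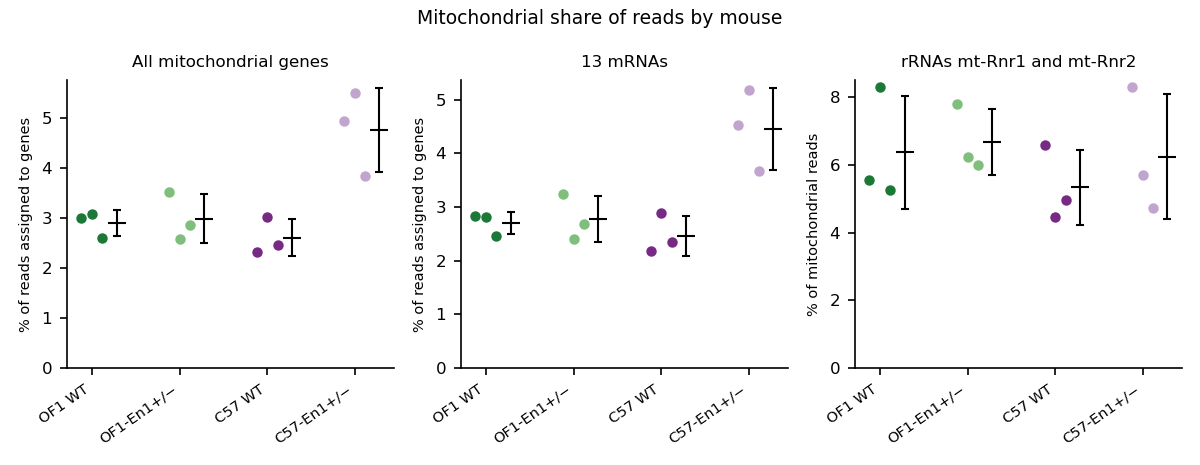
Percent of assigned reads from all mitochondrial genes (left) and from the 13 mRNAs (middle), and percent of mitochondrial reads from the rRNAs (right). Points are mice, and black bars are the group mean and SD (n = 3). The C57-En1+/− mice, at 3.85 to 5.50% in the left panel, stand above the 9 other mice, at 2.33 to 3.53%.

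Gene by gene, no mitochondrial gene passed the edgeR test between C57-En1+/− and C57 WT mice (0 of 26 at an adjusted p under 0.05, smallest 0.55), where it called 0% of all genes. At an unadjusted p under 0.05 there were 16 of the 26, where 8.57% of all 18017 genes had one. DESeq2 called 6 of the 26 as higher in C57-En1+/− mice, where it called 0.416% of all genes: mt-Co1, mt-Co2 and mt-Co3 of complex IV, mt-Cytb of complex III, mt-Rnr2, the large rRNA, and mt-Ts1. The fold change was above 0 for 24 of 26 members and all 13 mRNAs, where 46.2% of all genes were above 0. The median log2 fold change was 0.70 over the 26 members and 0.83 over the mRNAs, against -0.05 over all genes. Members are cut from shared precursors and enter the same mitochondrial share, so counts of members here and below are not counts of separate observations.

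The levels did not overlap between the C57 genotypes for 15 of the 26 members, each higher in C57-En1+/− mice, where 6.22% of all genes were so. None was lower without overlap, against 8.11% of all genes. These 15 were both rRNAs, mt-Ts1, mt-Te and 11 of the 13 mRNAs, mt-Nd5 and mt-Nd6 being the exceptions. Without C572 they numbered 16, where 9.55% of all genes were higher without overlap, and without SW22 and C572S 20, including all 13 mRNAs, where 10.1% were. In each of 16 alternative settings all 13 mRNAs were above 0, with a median between 0.67 and 1.04.

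mt-Co3 stood at 10153, 12942 and 8558 CPM in C57-En1+/− and at 4366, 6137 and 5294 CPM in C57 WT mice. Every C57-En1+/− mouse was above every C57 WT mouse, by 2.00-fold on average (log2 fold change 1.00 ± 0.20 SE, adjusted p = 0.55 by edgeR and 0.00228 by DESeq2). For mt-Co1 the values were 6745, 9973 and 6194 CPM against 3227, 5201 and 3814 CPM, again without overlap (0.90 ± 0.22, adjusted p = 0.55 by edgeR and 0.0238 by DESeq2).

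The large rRNA mt-Rnr2 (chrM:1094-2675) was close to constant in C57 WT mice, at 1223, 1237 and 1179 CPM, and varied in C57-En1+/− mice, at 3541, 2849 and 1607 CPM. The small rRNA mt-Rnr1 had the largest estimate of the 26 (log2 fold change 1.37 ± 0.38 SE) with 515, 449 and 216 CPM against 147, 175 and 134 CPM, and an adjusted p of 0.55 by edgeR and 0.0603 by DESeq2. The smallest estimate among the mRNAs was that of mt-Nd5, the large proton-pumping subunit of complex I near the far end of the heavy-strand precursor (0.40 ± 0.21). Its values of 1131, 1224 and 1003 CPM overlapped those of C57 WT mice, at 600, 1004 and 936 CPM.

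Between OF1-En1+/− and OF1 WT mice edgeR and DESeq2 each called 0 of the 26 members, where edgeR called 0% and DESeq2 1.18% of all genes. At an unadjusted p under 0.05 there were 2 members, mt-Tl1 and mt-Te, where 9.18% of all genes had one. Estimates were above 0 for 6 of the 26 members, where 48.6% of all genes were, a count that was 12 without SW7, 9 without SW22 and 4 without SW21. The mRNAs lay on both sides of 0 (4 above and 9 below, median -0.04; 3 to 8 above over 16 alternative settings), whereas 10 of the 11 tested tRNAs were below 0 (median -0.67, against -0.02 over all genes). Groups did not overlap for 4 members, each lower in OF1-En1+/− mice: mt-Tl1, mt-Ty, mt-Te and mt-Nd6. Of all genes 8.03% did so in that direction, and 7.68% in the other, where no member did. Without SW22, 3 mRNAs were higher and 5 members lower without overlap, where 12.8% and 13% of all genes were so.

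mt-Nd6, the complex I subunit of the light strand, was at 304, 272 and 289 CPM in OF1 WT and at 246, 186 and 244 CPM in OF1-En1+/− mice (log2 fold change -0.35 ± 0.23 SE, edgeR adjusted p = 0.669). Next to it on the same strand, mt-Te (chrM:14071-14139), the tRNA for glutamate, was at 13.7, 12.4 and 13.5 CPM in OF1 WT and at 9.69, 6.65 and 8.51 CPM in OF1-En1+/− mice (-0.67 ± 0.29, edgeR adjusted p = 0.53). In C57 mice mt-Te lay the other way, at 14.0, 16.1 and 10.1 CPM in C57-En1+/− and 6.41, 8.82 and 6.36 CPM in C57 WT mice.

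The difference of the genotype effects between the strains (C57 minus OF1) was tested as an interaction. It was called for 0 of 26 members by edgeR and by DESeq2, and for 0% and 0.236% of all genes. At an unadjusted p under 0.05 there were 12 members, against 7.07% of all genes. The estimate was above 0 for all 26 members, with a median of 1.01, whereas 47.5% of all genes were above 0, with a median of -0.04. The members are not separate observations, and the same difference in the mitochondrial share had an exact permutation p = 0.065 (adjusted p = 0.22). The smallest unadjusted p were those of mt-Co2 (log2 1.14 ± 0.29 SE), mt-Te (1.57 ± 0.40) and mt-Ts1 (1.44 ± 0.38), each with an adjusted p of 0.691 by edgeR.

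Strains differed in the level of a few members. Between OF1 WT and C57 WT mice edgeR called 2 of 26 members, where it called 1.03% of all genes: mt-Ts1 was higher and mt-Atp8 lower in OF1 WT mice, against 0.766% of all genes called higher and 0.261% called lower. At an unadjusted p under 0.05 there were 4 members, against 8.63% of all genes. mt-Ts1, a tRNA for serine, was at 72.6, 108 and 73.3 CPM in OF1 WT and 30.4, 44.1 and 26.9 CPM in C57 WT mice, a 2.50-fold difference without overlap (log2 fold change 1.32 ± 0.27 SE, edgeR adjusted p = 0.0375). mt-Atp8 was at 234, 185 and 291 CPM in OF1 WT and 402, 543 and 600 CPM in C57 WT mice, also without overlap (-1.12 ± 0.24, edgeR adjusted p = 0.0492).

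DESeq2 called 3 members between the WT groups, where it called 2.56% of all genes. These were the same genes and mt-Tl1 (chrM:2676-2750), a tRNA for leucine, at 4.70, 3.93 and 7.23 CPM in OF1 WT and 1.11, 1.61 and 0.880 CPM in C57 WT mice (log2 fold change 2.13 ± 0.53 SE, adjusted p = 0.118 by edgeR and 0.00156 by DESeq2). Estimates were above 0 for 19 of the 26 members, where 45.2% of all genes were. Of the mRNAs 7 were above and 6 below 0 (median 0.04), and 10 of the 11 tested tRNAs were above 0 (median 0.87). The comparison of the WT groups and that of the OF1 genotypes share the OF1 WT libraries, so their tRNA values are not separate observations. Groups did not overlap for 7 members that were higher in OF1 WT mice, where 6.23% of all genes were so, and for mt-Atp8 as the 1 lower member, where 8.56% were. The edgeR calls were at the edge of the threshold: mt-Atp8 alone was called without C5710, mt-Ts1 alone without C572S, and 0 members without any of the other 4 libraries compared, or without both SW22 and C572S, where mt-Atp8 and mt-Ts1 kept their direction.

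Between the En1+/− groups edgeR called 4 of 26 members, each lower in OF1 mice, where it called 0.927% of all genes and 0.261% as lower. They were mt-Atp8 and the complex I subunits mt-Nd1, mt-Nd4l and mt-Nd6. mt-Atp8 was at 335, 220 and 342 CPM in OF1-En1+/− and 768, 877 and 687 CPM in C57-En1+/− mice (log2 fold change -1.38 ± 0.24 SE, edgeR adjusted p = 0.0152). mt-Nd1 (chrM:2751-3707), which follows the rRNAs, was at 1894, 1366 and 1675 CPM against 3861, 3939 and 3172 CPM (-1.15 ± 0.21, edgeR adjusted p = 0.0216). Neither gene had overlapping groups.

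mt-Nd4l was at 62.0, 55.3 and 48.1 CPM in OF1-En1+/− and 117, 160 and 94.8 CPM in C57-En1+/− mice (log2 fold change -1.17 ± 0.24 SE, edgeR adjusted p = 0.047). mt-Nd6 was at 246, 186 and 244 CPM against 604, 498 and 353 CPM (-1.10 ± 0.23, edgeR adjusted p = 0.0482). All 13 mRNAs were below 0, with a median of -0.90 against -0.02 over all genes, and 11 of them did not overlap between the groups. Estimates were above 0 for 4 of the 26 members, where 48.3% of all genes were. Of all genes 6.75% were lower without overlap, as were 15 members, and 6.49% higher, as was mt-Tw. DESeq2 called 7 members, all lower, adding mt-Nd2, mt-Nd4 and mt-Co2, where it called 2.49% of all genes.

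The comparison within C57 mice and the comparison of the En1+/− groups share the C57-En1+/− libraries, so their large values are not separate observations. edgeR called 0 of the 4 members between the En1+/− groups without both SW22 and C572S, and 0 without SW22 alone. Without both, the log2 fold changes were -1.20 for mt-Atp8, -1.04 for mt-Nd1, -1.17 for mt-Nd4l and -0.98 for mt-Nd6, and DESeq2 called all 4. Leaving out either of the other OF1-En1+/− libraries, C5713 or C572 left 1 member, and leaving out C575 left 4.

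**Figure D3:**
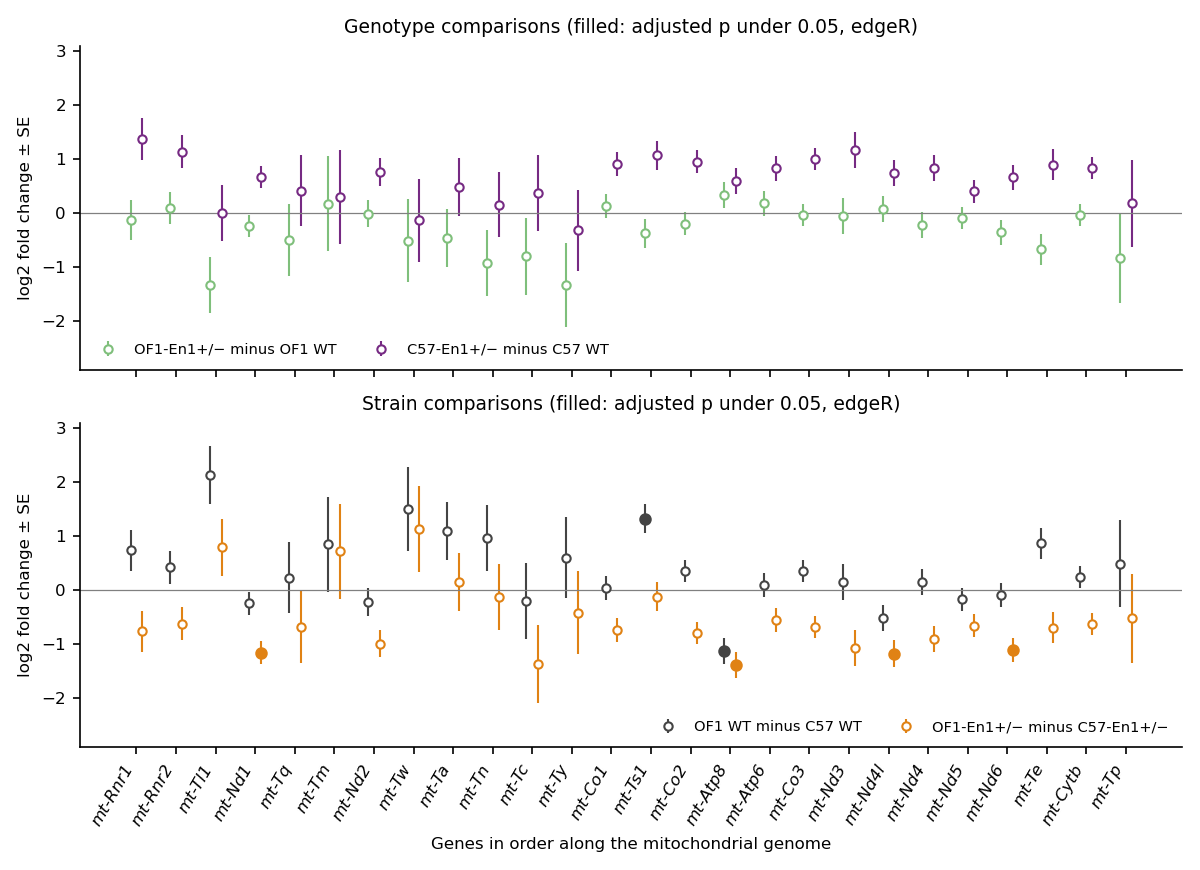
Log2 fold changes of the 26 tested mitochondrial genes with their SE, in gene order, for the comparisons of genotype (top) and strain (bottom). Filled points had an edgeR adjusted p under 0.05. In the top panel all 13 mRNAs are above 0 in C57 mice, with no filled point, and in the bottom panel the filled points are mt-Ts1 and mt-Atp8 for WT mice and mt-Nd1, mt-Atp8, mt-Nd4l and mt-Nd6 for En1+/− mice.

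Ratios between members within a library are not scaled by depth or by the mitochondrial share, and 6 of the 10 examined differed between the strains (adjusted p under 0.05 in exact permutation tests within genotype, 22 tests of strain and genotype in all, those of the mitochondrial share included). None of the 10 passed the test between the genotypes. Some of the 6 share members and are not separate observations. The members mt-Nd1, mt-Nd2 and mt-Nd5 enter the slope along the genome, the ratio of distant to near mRNAs and that of complex IV to complex I. Likewise mt-Nd4l and mt-Nd4 enter the slope, the ratio of complex IV to complex I and their own ratio. The largest difference was that of mt-Atp8 to mt-Atp6, genes read from a shared mRNA whose shared bases are the capitals in the sequence of mt-Atp8. Per kb, mt-Atp8 stood at 0.178, 0.146 and 0.261 of mt-Atp6 in OF1 WT and at 0.194, 0.193 and 0.258 in OF1-En1+/− mice. It stood at 0.460, 0.362 and 0.555 in C57 WT and at 0.360, 0.376 and 0.408 in C57-En1+/− mice. All 6 OF1 mice were below all 6 C57 mice, by -1.05 on the log2 scale (exact permutation p = 0.005, the smallest possible, adjusted p = 0.0275), and by -1.09 without SW22 and C572S.

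mt-Nd4l and mt-Nd4, which also share bases on the same strand, differed in the same direction. Per kb the ratio was 0.150, 0.127 and 0.159 in OF1 WT, 0.167, 0.202 and 0.165 in OF1-En1+/−, 0.218, 0.216 and 0.252 in C57 WT and 0.189, 0.228 and 0.222 in C57-En1+/− mice. The strains differed by -0.46 on the log2 scale (exact permutation p = 0.01, adjusted p = 0.0367), with SW22, the highest OF1 mouse, above C5713, the lowest C57 mouse. mt-Atp8 and mt-Nd4l are 204 and 297 bases long, shorter than or near the length of the sequenced fragments, so their estimated counts rest on few possible fragment positions. With the TPM of the authors in place of reads per kb, the strain difference was -0.97 for mt-Atp8 to mt-Atp6 (adjusted exact permutation p = 0.0367) and -0.37 for mt-Nd4l to mt-Nd4 (adjusted exact permutation p = 0.0629, no longer past the threshold).

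A line through the levels of the 12 heavy-strand mRNAs sloped down along the genome in all 12 libraries. It was steeper in C57 than in OF1 mice. The slope of log2 reads per kb on gene position was -0.0655, -0.0680 and -0.0574 per kb in OF1 WT and -0.0714, -0.0520 and -0.0694 in OF1-En1+/− mice. In C57 WT mice it was -0.0950, -0.103 and -0.0760 and in C57-En1+/− mice -0.108, -0.0800 and -0.0984. The strains did not overlap (difference 0.0294 per kb, OF1 minus C57, exact permutation p = 0.005, adjusted p = 0.0275). The most distant pair, mt-Nd5 and mt-Cytb, stood 0.17 ± 0.18 and 0.25 ± 0.17 (log2, SD, n = 3) above mt-Nd1 and mt-Nd2 in the OF1 groups, and -0.09 ± 0.14 and -0.18 ± 0.24 in the C57 groups, a strain difference of 0.35 (exact permutation p = 0.01, adjusted p = 0.0367). The last difference missed the threshold without any of 8 of the 12 libraries. Without both SW22 and C572S the strain difference was 0.0234 per kb for the slope and 0.27 for the distant pair (adjusted exact permutation p = 0.088 and 0.157). The line runs through scattered levels, since mt-Co3 in the middle is the highest mRNA, and it was not tested against a flat one. In the OF1 groups the means of the distant pair ran opposite to the slope.

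Complex IV mRNAs stood further above those of complex I in OF1 mice. The mean log2 reads per kb of mt-Co1, mt-Co2 and mt-Co3 minus that of the 6 heavy-strand complex I mRNAs was 3.00, 3.09 and 3.11 in OF1 WT, 3.07, 3.21 and 3.14 in OF1-En1+/−, 2.75, 2.68 and 2.63 in C57 WT and 2.63, 3.05 and 2.94 in C57-En1+/− mice. The difference was 0.32 (OF1 minus C57, exact permutation p = 0.005, adjusted p = 0.0275). Neither the WT groups nor the En1+/− groups overlapped, although C572 of the C57-En1+/− group reached above SW31, the lowest OF1 mouse, which was WT.

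**Figure D4:**
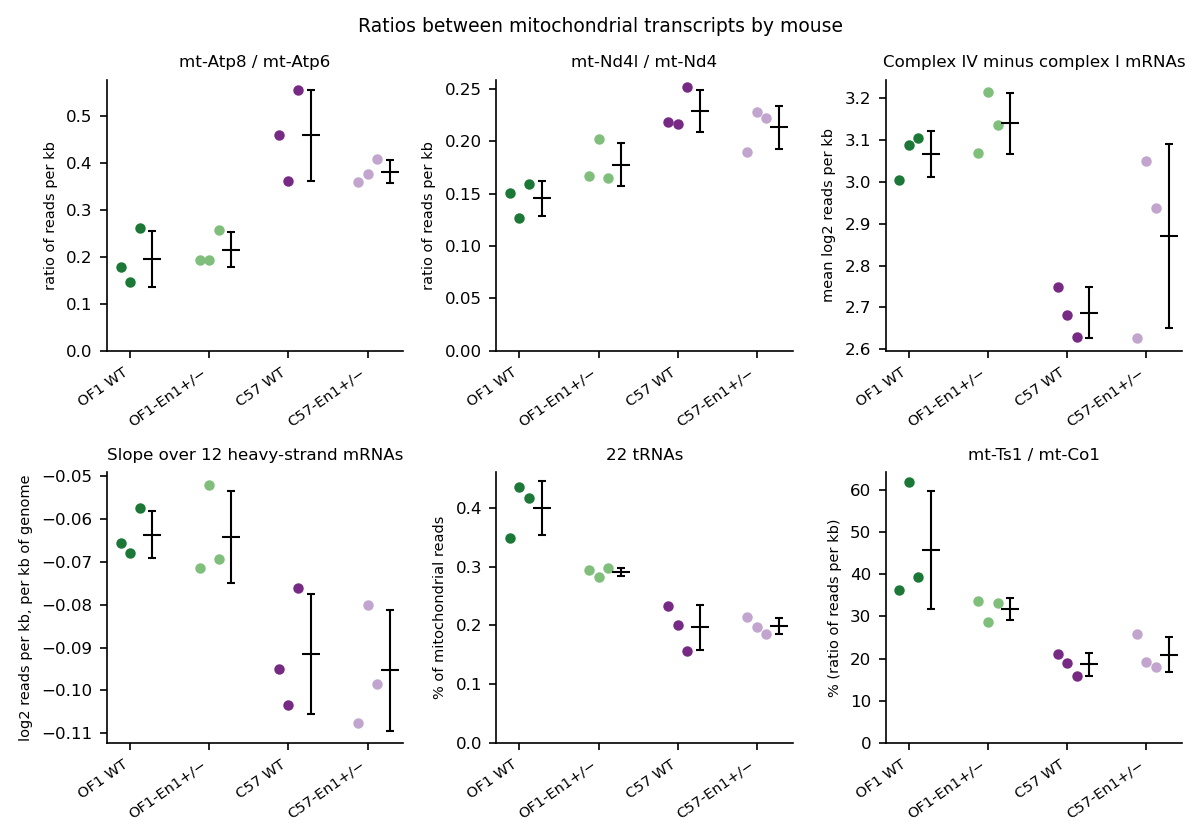
Ratios between mitochondrial transcripts for each mouse: mt-Atp8 to mt-Atp6, mt-Nd4l to mt-Nd4, complex IV minus complex I mRNAs (log2), the slope along the genome, the tRNA share of mitochondrial reads, and mt-Ts1 to mt-Co1. Black bars are the group mean and SD (n = 3), and the axes of the complex IV and slope panels do not start at 0. All 6 OF1 mice lie below all 6 C57 mice for mt-Atp8 to mt-Atp6, and above them for the slope, the tRNA share and mt-Ts1 to mt-Co1.

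The mean level of the rRNAs stood below the mean level of the mRNAs in every library, in libraries primed on poly(A) tails. mt-Rnr2 was above 5 to 7 of the 13 mRNAs per kb, and mt-Rnr1 above 0 to 3. The mean rRNA level was 0.214 to 0.357 of the mean mRNA level per kb in OF1 and 0.177 to 0.339 in C57 mice, and passed the test neither for strain (log2 difference 0.24, adjusted exact permutation p = 0.389) nor for genotype (0.16, adjusted exact permutation p = 0.563). Single libraries moved these values: the strain difference was 0.12 without SW7 and 0.35 without C5713, and the genotype difference was 0.27 and 0.04 without the same libraries. mt-Rnr2 stood 3.25 to 4.74-fold above mt-Rnr1 per kb in OF1 and 3.83 to 5.32-fold in C57 mice (strain difference -0.07, adjusted exact permutation p = 0.794).

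mt-Nd6, the only mRNA of the light strand, stood below the mean of the 12 heavy-strand mRNAs in every library. The log2 difference was -1.33, -1.45 and -1.33 in OF1 WT, -1.81, -1.73 and -1.58 in OF1-En1+/−, -1.38, -1.31 and -1.39 in C57 WT and -1.23, -1.68 and -1.62 in C57-En1+/− mice. OF1-En1+/− mice were below OF1 WT mice without overlap, and 2 of 3 C57-En1+/− mice were below all C57 WT mice. The genotype difference over both strains was -0.24 (exact permutation p = 0.03, adjusted p = 0.0825) and passed the threshold only where C5713 was left out (-0.31, adjusted exact permutation p = 0.0275). Against its neighbours mt-Nd5 and mt-Cytb, mt-Nd6 was lower in OF1 than in C57 mice by -0.29 (exact permutation p = 0.02, adjusted p = 0.0629).

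Reads assigned to tRNA genes were few, lay mostly over the 8 light-strand genes, and may come from longer RNAs that cover these genes. The 22 tRNAs together had 982 to 6506 reads in a library. Light-strand tRNAs took 91.7 to 97.4% of them and mt-Ts1 alone 62.7 to 80.6%. All 8 light-strand tRNAs passed the filter but 3 of the 14 heavy-strand tRNAs did: mt-Tl1, mt-Tm, the tRNA for methionine, and mt-Tw, the tRNA for tryptophan. The 11 others had 1 to 101 reads each over all 12 libraries. mt-Tf and mt-Ts2 had reads in 1 library each, and a count of 0 allows up to 3 reads, or 0.0192 to 0.22 CPM depending on the library.

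The tRNA share of mitochondrial reads was 0.349, 0.436 and 0.417% in OF1 WT, 0.294, 0.283 and 0.297% in OF1-En1+/−, 0.233, 0.200 and 0.157% in C57 WT and 0.214, 0.198 and 0.186% in C57-En1+/− mice. OF1 mice were above C57 mice without overlap, by 0.148 percentage points (exact permutation p = 0.005, adjusted p = 0.0275), and OF1 WT mice above OF1-En1+/− mice. The genotype difference over both strains was -0.0534 points (exact permutation p = 0.07, adjusted p = 0.154). A quantity chosen after its values were seen, mt-Ts1 relative to mt-Co1 opposite to it, was 28.8 to 61.9% per kb in OF1 and 15.8 to 25.8% in C57 mice. mt-Te relative to mt-Nd6 beside it, chosen likewise, was 26.2 to 35.1% in OF1 and 15.6 to 24.4% in C57 mice.

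Nuclear chromosomes hold copies of stretches of mitochondrial DNA, and reads can be assigned to a copy instead of the mitochondrial gene. A search found 11 nuclear transcripts that match a mitochondrial gene over at least 80% of their length at 95% identity or more, and 8 of them had reads. Relative to mitochondrial reads theirs came to 6.99 to 9.78% in OF1 and to 6.13 to 8.19% in C57 mice, most of them at the mt-Co1 copy Gm29216. Copies of mt-Co1 together held 38.5 to 74.5% as many reads as mt-Co1 itself in OF1 and 37.3 to 59.3% in C57 mice, so the level of mt-Co1 was uncertain.

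Copies differed in how their reads were spread over the strains. Gm13340, another copy of mt-Co1, had 4458 to 11726 reads in OF1 libraries, against 49.3 to 180 in those of C57 mice, although the 3 C57 WT libraries were the deepest. The mt-Nd2 copy Gm13339 held 1.29 to 2.08% as many reads as mt-Nd2 in OF1 mice and at most 0.0167% in C57 mice, and the mt-Nd5 copy Gm4076 held 2.78 to 3.41% and at most 0.00938%. The mt-Nd3 copy Gm28438 held 33.4 to 61.4% as many reads as mt-Nd3 in OF1 and 0.473 to 10.1% in C57 mice. Adding the reads of the copies to the genes kept the 6 ratios that differed between strains past the threshold, and left mt-Ts1 called but not mt-Atp8 between the WT groups.

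**Figure D5:**
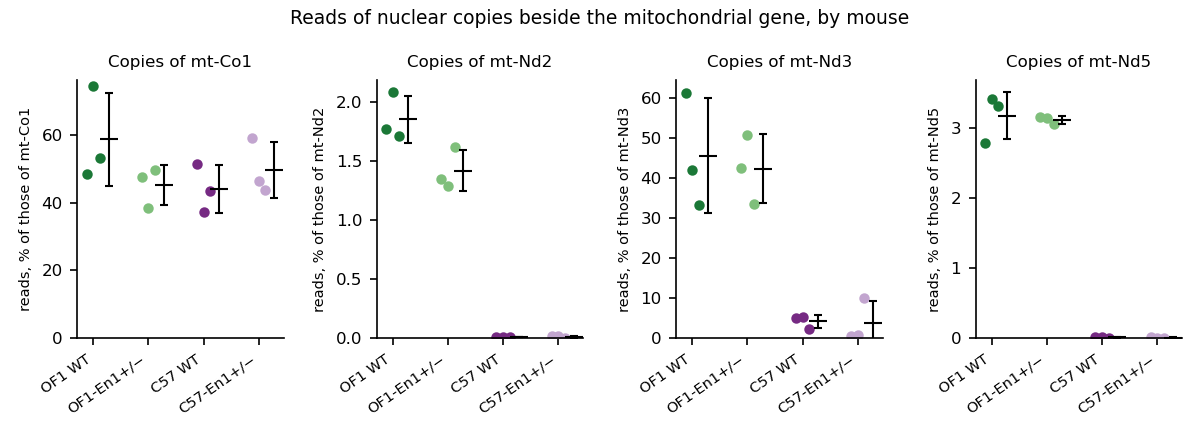
Reads assigned to nuclear copies of 4 mitochondrial genes, as a percent of the reads of the mitochondrial gene, for each mouse. Black bars are the group mean and SD (n = 3). Copies of mt-Nd2, mt-Nd3 and mt-Nd5 have higher shares in all 6 OF1 than in all 6 C57 mice, whereas the shares for mt-Co1 overlap.

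The nuclear genes that transcribe mitochondrial DNA and process its RNA were set beside these results as a list of 37, from the polymerase Polrmt and its factors to the enzymes that cut and modify the RNAs. All 37 were tested. edgeR called 0 of them between genotypes within either strain, with 3 at an unadjusted p under 0.05 in each strain, beside 9.18% of all genes in OF1 and 8.57% in C57 mice. DESeq2 called 1 in OF1 (Fastkd2) and 0 in C57 mice, beside 1.18% and 0.416% of all genes. Their median log2 difference between C57-En1+/− and C57 WT mice was 0.01, with 19 above and 18 below 0, beside 0.70 for the mitochondrial members. Without overlap 2 of the 37 were higher and 7 lower in C57-En1+/− mice, where 6.22% and 8.11% of all genes were so. In OF1-En1+/− mice 7 were higher and 0 lower without overlap, where 7.68% and 8.03% of all genes were so. The part of the listed genes in the results was not tested. Between the strains edgeR called the same 2 of the 37 genes in both genotypes, where it called 1.03% of all genes in WT and 0.927% in En1+/− mice. Both belong to the FASTK family of mitochondrial RNA-binding proteins, whose other members on the list were not called between the strains.

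Tbrg4, also called Fastkd4, was at 16.5, 20.5 and 17.6 CPM in OF1 WT and 3.91, 3.68 and 3.84 CPM in C57 WT mice (log2 fold change 2.26 ± 0.28 SE, edgeR adjusted p = 0.000998). It was at 13.3, 18.7 and 21.5 CPM in OF1-En1+/− and 6.16, 8.58 and 5.99 CPM in C57-En1+/− mice (1.37 ± 0.27, edgeR adjusted p = 0.038). Fastkd1 lay the other way, at 11.4, 8.54 and 9.35 CPM in OF1 WT and 21.7, 19.5 and 29.6 CPM in C57 WT mice (-1.27 ± 0.26, edgeR adjusted p = 0.0339). In En1+/− mice it was at 8.65, 10.3 and 11.3 CPM in OF1 and 22.6, 21.3 and 29.8 CPM in C57 (-1.28 ± 0.26, edgeR adjusted p = 0.0369). Neither gene overlapped between the strains in either genotype.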

How the data were processed

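Nigral tissue of 12 mice was captured by laser and sequenced as 12 paired-end libraries without strand. The authors estimated transcript abundance with Salmon on GRCm39 transcripts. The deposited files hold an estimated count and a TPM for each transcript. Of 140790 transcripts 139555 (99.1%) could be assigned to a gene, and the estimated counts were added up by gene, then rounded to whole numbers. No column of values was left unmapped to a sample (0 such columns). Replicates of a group were separate mice, and every pair of them differed beyond sampling noise.

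Genes with a mean normalised count of at least 10 were tested (18017 genes) with edgeR 4.0.16 (R 4.3.3), quasi-likelihood test with robust dispersion, TMM factors, all 12 libraries and group means, and Benjamini-Hochberg adjustment over all genes, at a threshold of 0.05. CPM was scaled to the TMM effective library size. The SE was derived from the F statistic. The fits were tested on simulated data. DESeq2 1.42.0 was an alternative. Ratios were computed from reads per kb of annotated length and compared by exact two-sided permutation tests within strain or genotype (Python 3.11.15), adjusted over 22 tests. Nuclear copies were found with blastn 2.17.0.

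In each library the difference between transcript length and effective length was the same to within 0.1 base for 99.1% of 54218 long transcripts, so the effective lengths carried no correction particular to a gene. Depth sets the precision of the tRNAs most, and limits for a count of 0 cover counting error only. Any mitochondrial gene could be named, with at most 2 nuclear genes of mitochondrial transcription and RNA processing per comparison (smallest p), and other genes only as cell type markers or where a result turned on them. The members, lists and ratios were chosen with earlier results of these data known. Alternatives were other scaling factors, no filter, length offsets, library sizes without mitochondrial genes, nuclear copies added, the TPM of the authors, and libraries left out.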

Additional observations from a re-analysis of the deposited data

Results flagged for a closer look

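The difference between genotypes went opposite ways in the strains for mt-Te, the light-strand tRNA for glutamate. Every C57-En1+/− mouse was above every C57 WT mouse, and every OF1-En1+/− mouse was below every OF1 WT mouse. Of all genes 6.22% were so in C57 and 8.03% in OF1 mice, and the share that met both was not computed. The C57 part was not particular to mt-Te: 15 of the 26 members were higher without overlap there. In the interaction all 26 estimates were above 0. The difference of the effects was 1.57 ± 0.40 (log2, SE), with an edgeR interaction test at an adjusted p of 0.691 and DESeq2 at 0.0507, so neither passed the threshold. In the 12 libraries mt-Te lay between 6.36 and 16.1 CPM.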

How the results depend on the processing

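No paired analysis was possible because the labels give no replicate numbers that the groups share. The direction of each of the 6 ratios that differed between strains held in every alternative run, 15 for 5 of them and 14 for the tRNA share. Causes of the changes listed here were not tested. Between the C57 genotypes the count of called members was 0, and 6 with DESeq2, 6 with DESeq2 and nuclear copies added, and 7 with DESeq2 without SW22 and C572S. Between the WT groups it was 2, and 1 with relative log expression factors, with length offsets or with nuclear copies added, 0 without SW22 and C572S or when only the 6 libraries compared were fitted, 4 with DESeq2 without SW22 and C572S, and 0 to 1 when each library was left out. Between the En1+/− groups it was 4, and 7 with DESeq2, 8 with DESeq2 and nuclear copies added, 2 with length offsets, 1 when only the 6 libraries compared were fitted, 0 without SW22 and C572S, and 0 to 4 when each library was left out. Between the OF1 genotypes and for the interaction it was 0 in all settings.

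Without SW22 and C572S the smallest exact permutation p was 0.01 and the smallest adjusted p reached was 0.055, so a value of 0.055 says nothing of stability. With that adjusted permutation p the strain difference was 0.30 for complex IV to I, -1.09 for mt-Atp8 to mt-Atp6, -0.53 for mt-Nd4l to mt-Nd4 and 0.151 points for the tRNA share. For the slope it fell from 0.0294 to 0.0234 (adjusted exact permutation p = 0.088). For distal to proximal mRNAs it fell from 0.35 to 0.27 (adjusted exact permutation p = 0.157). With TPM the strain difference of mt-Nd4l to mt-Nd4 was -0.37. That of mt-Nd6 to its neighbours passed with nuclear copies added (-0.31, adjusted exact permutation p = 0.0471) and with TPM (-0.27, adjusted exact permutation p = 0.0367).

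When each library was left out in turn, the strain difference ranged from -1.165 to -0.955 for mt-Atp8 to mt-Atp6, -0.51 to -0.41 for mt-Nd4l to mt-Nd4, -0.34 to -0.20 for mt-Nd6 to its neighbours, -0.111 to 0.0138 for mt-Rnr2 to mt-Rnr1, 0.26 to 0.37 for complex IV to I, 0.28 to 0.40 for distal to proximal mRNAs, 0.12 to 0.35 for rRNA to mRNA, 0.0264 to 0.0333 for the slope and 0.138 to 0.161 points for the tRNA share. The genotype difference ranged from -0.133 to 0.0769 for mt-Atp8 to mt-Atp6, -0.233 to -0.0887 for mt-Nd6 to its neighbours, -0.109 to 0.0150 for mt-Rnr2 to mt-Rnr1, 0.0840 to 0.190 for complex IV to I, -0.0577 to 0.0577 for distal to proximal mRNAs, -0.31 to -0.20 for mt-Nd6 to the heavy-strand mRNAs, 0.0395 to 0.27 for rRNA to mRNA and -0.00608 to 0.00161 for the slope. Without SW21 or SWB the 6 strain differences had an adjusted p of 0.055 to 0.0733 by exact permutation and kept their sign. mt-Nd4l to mt-Nd4 also missed the threshold without C572 or C575 (adjusted exact permutation p = 0.055), and distal to proximal mRNAs missed it without any of 8 of the 12 libraries. Genotype differences passed only without C5713: -0.23 for mt-Nd6 to its neighbours, -0.31 for mt-Nd6 to the heavy-strand mRNAs and 0.19 for complex IV to I.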
